A study of Mus musculus with 6 samples.

Results

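Cytokine receptor chains are the membrane proteins through which a CD4 T cell senses the soluble signals that keep it alive and direct its differentiation. The 10 genes described here code for receptor chains found on CD4 cells, and they were taken from the expression table by symbol: Il7r, Il4ra, Il2rb, Il6ra, Il6st, Il27ra, Il10ra, Ifngr1, Il18r1 and Tgfbr2. They are 10 of the 28914 genes in the table, and all 10 were among the 10798 genes that reached 1 FPKM in at least 2 libraries and entered the test.

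Splenic CD4 T cells of NOD mice, in which autoimmune diabetes arises spontaneously, were sorted at 12 weeks of age for RNA sequencing, and the cells were not restimulated through the T cell receptor. BTg mice overexpress Blimp-1, the transcriptional repressor encoded by Prdm1 that is known to repress Il2 in T cells. CKO mice are labelled as Blimp-1 knockout. The third group, WT, is the control, and each of the 3 groups had 2 libraries. Both BTg titles end in the same number, so the replicate numbers of this group follow the bracketed column names instead. The labels name neither the promoter of the transgene nor the Cre line and the deleted exons, and they do not say whether each library came from a separate mouse. The p-values therefore rest on the spread among libraries, which may be technical.

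Recovered library totals ranged from 14958458 to 17799091 reads. Prdm1 was at 19.6 and 30.1 FPKM in the BTg libraries, 0.849 and 0.669 FPKM in the libraries labelled CKO and 0.458 and 0.628 FPKM in the WT libraries. Prdm1 was thus higher in both BTg libraries than in all others (log2 difference against WT 4.04 ± 0.26, standard error, adjusted p = 0.0221) but not lower in the libraries labelled CKO, and reads summed over a whole gene cannot show the loss of single exons. Cd4 was at 99.4 and 103 FPKM in the BTg libraries, 53.8 and 93.7 FPKM in the libraries labelled CKO and 93.7 and 81.7 FPKM in the WT libraries, while Cd8a had 3 to 13 reads per library. CKO replicate 1 stood apart from the other 5 libraries: neutrophil marker genes made up 1.53% of its reads and 0.0103 to 0.046% elsewhere, and plasma cell markers 0.571% and 0.0501 to 0.144% elsewhere. It also had the lowest level of all 6 libraries for 6 of the 10 chains, and the 10 chains together took 0.154% of its total. That share was 0.258 and 0.287% in the BTg libraries, 0.278% in CKO replicate 2 and 0.259 and 0.265% in the WT libraries. In bulk samples such as these, fewer cells of a type and less RNA per cell cannot be told apart.

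Most of these chains work in pairs. The ligand is bound by a private chain (Il7r for IL-7, Il4ra for IL-4, Il6ra for IL-6) together with a shared chain (Il2rg, the common gamma chain, or Il6st, also called gp130), and Janus kinases bound to the cytoplasmic tails then phosphorylate STAT factors. Il18r1 belongs instead to the IL-1 receptor family and signals through Myd88, and Tgfbr2 is a serine/threonine kinase that acts with Tgfbr1 on Smad proteins. In resting T cells Il7r transmits a survival signal, and its expression usually falls on activation, whereas Il2rb usually becomes more abundant on effector and memory cells.

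Il7r and Il2rb were lower, and Il4ra higher, in both BTg libraries than in both WT libraries, and in the libraries labelled CKO the direction against WT was the opposite for Il4ra and Il2rb but not for Il7r. None of the 10 chains passed the adjusted p threshold of 0.05 in any of the 3 comparisons. That test called 0.0185% of all genes between BTg and WT, 0% between CKO and WT and 0.0185% between BTg and CKO, so it called very few genes of any kind. At an unadjusted p under 0.05, 1 of the 10 chains was called between BTg and WT (Il7r; 1.62% of all genes), 0 between CKO and WT (4.2% of all genes) and 2 between BTg and CKO (Il4ra and Il2rb; 8.79% of all genes). A second test on the recovered reads, voom, called 0 of the 10 in each comparison after adjustment.

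**Figure D1:**
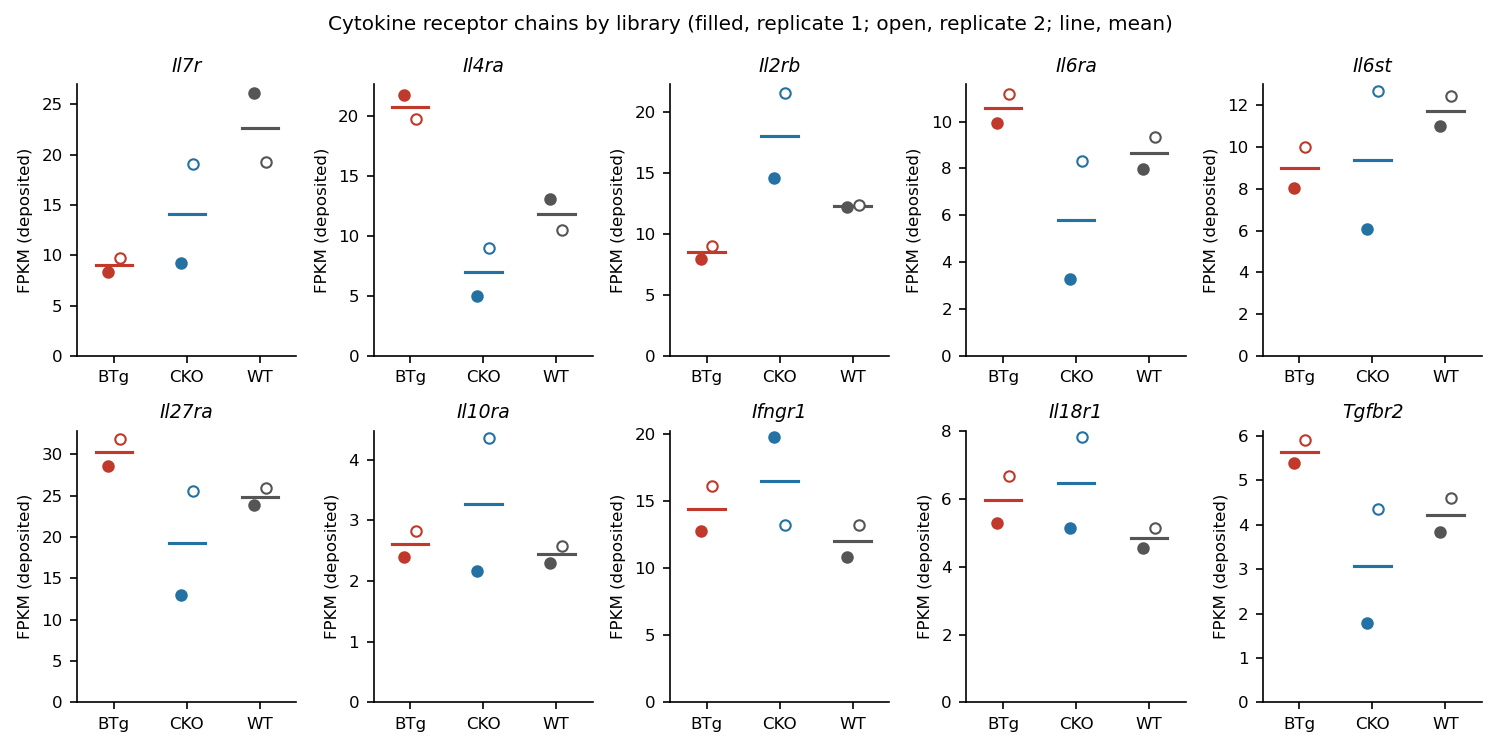
FPKM of the 10 receptor chains in each library, with 1 panel per gene, the groups BTg, CKO and WT on the horizontal axis and FPKM on a vertical axis that starts at 0. Filled points are replicate 1, open points replicate 2 and lines the mean of the 2 libraries. Il7r is below 10 FPKM in both BTg libraries and above 19 FPKM in both WT libraries, Il4ra is highest in BTg, and the 2 CKO points lie further apart than the others for most genes.

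Il7r, the alpha chain of the IL-7 receptor, lies on chromosome 15 (9505788 to 9530176, minus strand, GRCm38). Its level was 8.39 and 9.71 FPKM in the BTg libraries, 9.20 and 19.1 FPKM in the libraries labelled CKO and 26.1 and 19.3 FPKM in the WT libraries. Both BTg libraries and both libraries labelled CKO were below both WT libraries, although CKO replicate 2 lay just under WT replicate 2. The group means were 9.05 ± 0.932 FPKM in BTg, 14.1 ± 7.00 FPKM in CKO and 22.7 ± 4.80 FPKM in WT (SD, n = 2 each). On the log2(FPKM + 1) scale the difference was -1.23 ± 0.38 between BTg and WT (standard error, 95% interval -2.16 to -0.29, adjusted p = 1), a level 2.34-fold lower in BTg. It was -0.71 ± 0.38 between CKO and WT (adjusted p = 1), with -0.22 without CKO replicate 1 and -1.20 without CKO replicate 2. The estimate between BTg and WT kept its sign in all 14 alternatives, from -1.43 to -1.02, though some of these could not move it. Those were no filter on low values, the replicate block and leaving out a CKO library.

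Il4ra, the IL-4-binding chain shared by the IL-4 and IL-13 receptors, lies on chromosome 7 (125552120 to 125579474, plus strand). It was at 21.8 and 19.7 FPKM in the BTg libraries, 4.95 and 8.97 FPKM in the libraries labelled CKO and 13.1 and 10.5 FPKM in the WT libraries. These 3 groups did not overlap, with BTg highest and CKO lowest. The group means were 20.7 ± 1.44 FPKM in BTg, 6.96 ± 2.84 FPKM in CKO and 11.8 ± 1.81 FPKM in WT (SD, n = 2 each). The log2 difference was 0.77 ± 0.32 between BTg and WT (95% interval -0.01 to 1.55, adjusted p = 1), -0.72 ± 0.32 between CKO and WT (adjusted p = 1) and 1.49 ± 0.32 between BTg and CKO (95% interval 0.72 to 2.27, adjusted p = 0.299). Over the alternatives the adjusted p of this last contrast ran from 0.0463 to 0.9997: it was 0.0463 when CKO replicate 2 was left out, so that CKO replicate 1 stood alone for its group. The sign was the same in all 14 alternatives for each of the 3 comparisons, including alternatives that could not move the estimate. The difference between CKO and WT was, however, -0.35 without CKO replicate 1 and -1.09 without CKO replicate 2.

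Il2rb, the beta chain of the IL-2 and IL-15 receptors, lies on chromosome 15 (78479256 to 78495271, minus strand) and had the opposite order. It was at 7.98 and 9.005 FPKM in the BTg libraries, 14.5 and 21.6 FPKM in the libraries labelled CKO and 12.2 and 12.4 FPKM in the WT libraries. Again the 3 groups did not overlap, here with CKO highest and BTg lowest. The log2 difference was -0.49 ± 0.27 between BTg and WT (adjusted p = 1), 0.50 ± 0.27 between CKO and WT (adjusted p = 1) and -0.98 ± 0.27 between BTg and CKO (95% interval -1.64 to -0.32, adjusted p = 0.435). Il2rb was the only one of the 10 whose libraries labelled CKO both lay above both WT libraries, but that difference was 0.77 without CKO replicate 1 and 0.23 without CKO replicate 2.

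The promoter windows of Il7r and Il4ra, the chains with the largest differences between group means (1.23 and 1.49), and of Tgfbr2 are printed to show what sequence lies at their starts. Tgfbr2 was not next by that measure: its largest difference was 0.78, below Il2rb (0.98), which has no window, and Il6ra (0.87). Its window held the most GAAAGT matches of those found for these chains. They cover 250 bases before to 50 bases after the start in RefSeq (GRCm38.p6), 5′ to 3′ on the gene's strand. RefSeq windows were matched for 7 of the 10 chains, with 9 windows in all, and not for Il2rb, Il27ra and Il10ra. Capitals mark GAAAGT, which lies within the sequence Blimp-1 is known to bind, and TTCNNNGAA, the core that STAT factors bind, each searched on both strands. The windows are Il7r, chr15:9529827-9530126, minus strand; Il4ra, chr7:125552021-125552320, plus strand; and Tgfbr2, chr9:116175314-116175613, minus strand.
Il7r: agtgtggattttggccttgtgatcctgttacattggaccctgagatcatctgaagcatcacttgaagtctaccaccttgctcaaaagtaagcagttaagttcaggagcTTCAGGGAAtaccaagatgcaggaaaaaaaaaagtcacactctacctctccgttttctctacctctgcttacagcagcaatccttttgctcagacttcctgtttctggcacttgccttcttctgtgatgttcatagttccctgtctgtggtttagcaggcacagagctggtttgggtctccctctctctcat
Il4ra: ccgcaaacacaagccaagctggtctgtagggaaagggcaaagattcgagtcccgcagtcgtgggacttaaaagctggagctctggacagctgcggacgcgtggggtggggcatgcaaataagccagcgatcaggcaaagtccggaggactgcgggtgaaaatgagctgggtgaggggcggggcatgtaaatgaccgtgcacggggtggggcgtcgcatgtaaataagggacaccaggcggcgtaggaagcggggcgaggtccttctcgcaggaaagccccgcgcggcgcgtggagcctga
Tgfbr2: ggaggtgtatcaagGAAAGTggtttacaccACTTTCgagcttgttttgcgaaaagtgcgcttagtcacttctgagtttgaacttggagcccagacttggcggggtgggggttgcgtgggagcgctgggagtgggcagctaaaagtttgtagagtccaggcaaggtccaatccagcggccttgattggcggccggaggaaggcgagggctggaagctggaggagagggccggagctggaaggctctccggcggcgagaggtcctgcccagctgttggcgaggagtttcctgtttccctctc
The Il7r window held 1 TTCNNNGAA match, 142 bases before the start, and no GAAAGT. Il4ra held neither motif in this window. Tgfbr2 held 2 GAAAGT matches, 1 on each strand, and no TTCNNNGAA. Of 32851 RefSeq promoter windows of this length, 14.3% held GAAAGT and 8.3% held TTCNNNGAA; among the 9 windows of these chains 2 held the first (Il6st and Tgfbr2) and 2 the second (Il7r and Il18r1). Matches of this kind are a description of the letters. The motifs can overlap each other, and none of the 9 windows held both.

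Il6ra, Il27ra and Il6st are chains of the gp130 family. Il6ra, the IL-6-binding chain (chromosome 3, 89864059 to 89913196, minus strand), was at 9.94 and 11.2 FPKM in the BTg libraries, 3.26 and 8.34 FPKM in the libraries labelled CKO and 7.97 and 9.32 FPKM in the WT libraries. Il27ra, the IL-27-binding chain (chromosome 8, 84030294 to 84042589, minus strand), was at 28.6 and 31.9 FPKM in the BTg libraries, 13.004 and 25.5 FPKM in the libraries labelled CKO and 23.9 and 25.9 FPKM in the WT libraries. Both genes were a little higher in both BTg libraries than in both WT libraries, while the CKO and WT libraries overlapped. The log2 difference between BTg and WT was 0.26 ± 0.39 for Il6ra and 0.27 ± 0.36 for Il27ra, each smaller than its standard error (adjusted p = 1 for both), and the Il6ra value was 0.16 without WT replicate 1. Between BTg and CKO it was 0.87 ± 0.39 for Il6ra (adjusted p = 0.589) and 0.70 ± 0.36 for Il27ra (adjusted p = 0.635). These 2 values were 0.31 and 0.24 without CKO replicate 1 and 1.44 and 1.16 without CKO replicate 2.

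Il6st, the signal-transducing chain that IL-6, IL-27 and related cytokines share (chromosome 13, 112464070 to 112510086, plus strand), went the other way from its ligand-binding partners in BTg. It was at 8.02 and 9.997 FPKM in the BTg libraries, 6.08 and 12.7 FPKM in the libraries labelled CKO and 10.994 and 12.5 FPKM in the WT libraries. The BTg libraries were below the WT libraries, and the libraries labelled CKO held both the lowest and the highest value of the 6. The log2 difference between BTg and WT was -0.35 ± 0.36, within 1 standard error (adjusted p = 1), and -0.21 without BTg replicate 1. Between CKO and WT it was -0.37 ± 0.36 (adjusted p = 1), turning to 0.11 without CKO replicate 1 and to -0.84 without CKO replicate 2.

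Il10ra and Ifngr1 belong to the class II cytokine receptors, and their BTg and WT libraries overlapped. Il10ra, the IL-10-binding chain (chromosome 9, 45253837 to 45269149, minus strand), was at 2.40 and 2.83 FPKM in the BTg libraries, 2.17 and 4.37 FPKM in the libraries labelled CKO and 2.31 and 2.57 FPKM in the WT libraries. Ifngr1, the ligand-binding chain of the interferon gamma receptor (chromosome 10, 19591949 to 19610229, plus strand), was at 12.7 and 16.1 FPKM in the BTg libraries, 19.8 and 13.2 FPKM in the libraries labelled CKO and 10.8 and 13.2 FPKM in the WT libraries. Ifngr1 was the only chain that was higher in CKO replicate 1 than in CKO replicate 2, at 1.497 times the level, against ratios of 0.392 (Il6ra) to 0.674 (Il2rb) for the other 9. Between BTg and WT the log2 difference was 0.07 ± 0.29 for Il10ra (95% interval -0.64 to 0.78) and 0.24 ± 0.30 for Ifngr1 (95% interval -0.49 to 0.97). Leaving out 1 library moved both: Ifngr1 to 0.40 without BTg replicate 1, 0.0837 without BTg replicate 2, 0.11 without WT replicate 1 and 0.38 without WT replicate 2, and Il10ra to 0.16, -0.0147, 0.0157 and 0.13 in the same order.

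Il18r1, the IL-18-binding chain (chromosome 1, 40465552 to 40500854, plus strand), was at 5.28 and 6.68 FPKM in the BTg libraries, 5.13 and 7.85 FPKM in the libraries labelled CKO and 4.55 and 5.14 FPKM in the WT libraries. Both BTg libraries were above both WT libraries by a narrow margin, and the log2 difference of 0.25 ± 0.26 was within 1 standard error (adjusted p = 1). It was 0.40 without BTg replicate 1 and 0.11 without BTg replicate 2. Between CKO and WT the libraries overlapped, with a log2 difference of 0.34 ± 0.26 (adjusted p = 1), which was 0.60 without CKO replicate 1 and 0.0711 without CKO replicate 2.

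Tgfbr2, the ligand-binding kinase of the TGF-beta receptor (chromosome 9, 116084293 to 116175360, minus strand), was at 5.39 and 5.90 FPKM in the BTg libraries, 1.79 and 4.34 FPKM in the libraries labelled CKO and 3.83 and 4.59 FPKM in the WT libraries. It was higher in both BTg libraries than in the other 4. The log2 difference was 0.35 ± 0.33 between BTg and WT (adjusted p = 1) and 0.78 ± 0.33 between BTg and CKO (adjusted p = 0.585), and the second value was 0.31 without CKO replicate 1 and 1.25 without CKO replicate 2.

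**Figure D2:**
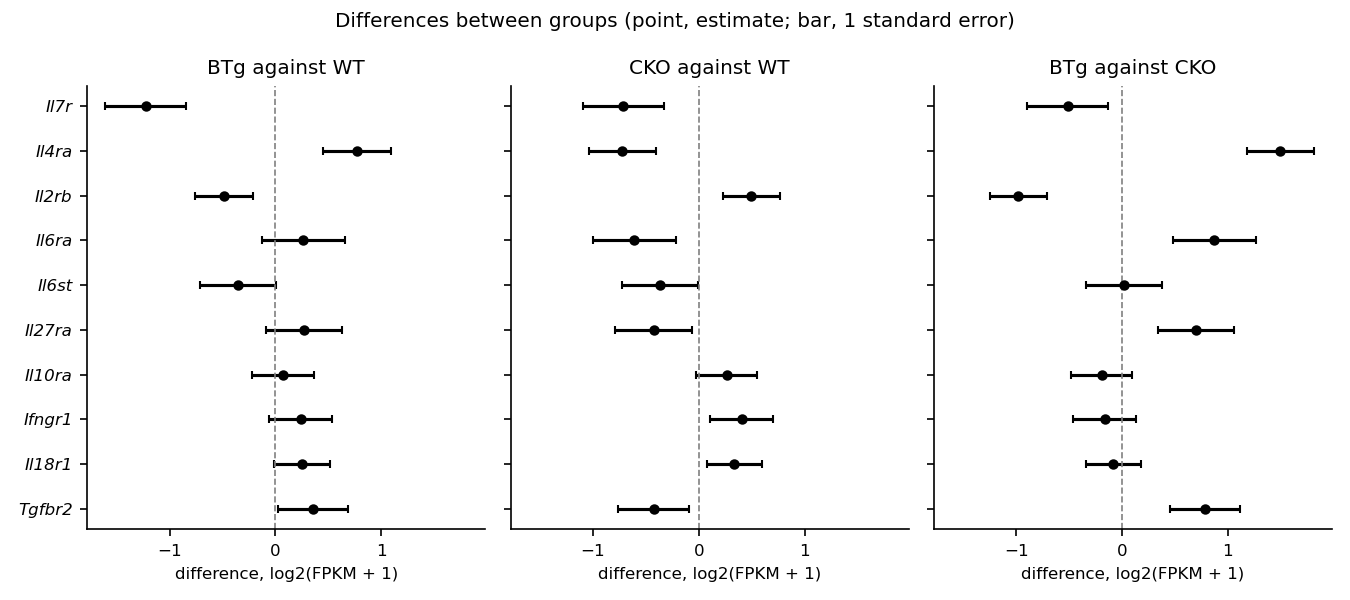
Differences of the 10 chains between groups on the log2(FPKM + 1) scale, with 1 panel per comparison (BTg against WT, CKO against WT, BTg against CKO). Points are the estimates, bars 1 standard error, and a positive value means higher in the group named first in the panel title. Il7r at -1.23 is lowest in the first panel, and Il4ra at 1.49 and Il2rb at -0.98 are the extremes of the third.

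Counted over the 10 chains, both BTg libraries were above both WT libraries for 5 and below them for 3, where 14.7% and 10.4% of all tested genes were so placed. Both libraries labelled CKO were above both WT libraries for 1 chain (11.5% of all genes) and below them for 2 (8.96%). Between BTg and CKO, 4 chains were higher in both BTg libraries (17.8%) and 1 was lower (21.8%). The median log2 difference of the 10 was 0.25 between BTg and WT, -0.40 between CKO and WT and -0.03 between BTg and CKO, against 0.02, -0.03 and 0.06 over all tested genes. The mean log2(FPKM + 1) of the 10 was 2.87 in CKO replicate 1 and 3.57 in CKO replicate 2, against 3.37 and 3.42 in the WT libraries. By this mean CKO replicate 1 was below both WT libraries and CKO replicate 2 above them, so the negative median is not shared by both CKO libraries. Both comparisons against WT use the same 2 WT libraries, and all 3 contrasts share libraries with one another.

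Because CKO replicate 1 had a lower share of T cell RNA (13 T cell identity genes took 0.424% of its reads, against 0.563 to 0.825% in the other 5 libraries), each chain was also set against Cd4 in the same library, a ratio chosen after the values were seen. Per 100 FPKM of Cd4, Il7r was at 8.44 and 9.38 FPKM in the BTg libraries, 17.1 and 20.4 FPKM in the libraries labelled CKO and 27.8 and 23.6 FPKM in the WT libraries. On this scale its 3 groups were apart, with BTg lowest and CKO between BTg and WT. Il4ra was at 21.9 and 19.1 FPKM per 100 of Cd4 in BTg, 9.20 and 9.57 in CKO and 13.9 and 12.9 in WT, and the 2 libraries labelled CKO were nearly level. Il2rb was at 8.03 and 8.70 in BTg, 27.0 and 23.0 in CKO and 12.98 and 15.2 in WT on the same scale. For these 3 chains the order of the groups by mean was the same with and without Cd4 as the base. Il10ra, at 2.42 and 2.74 in BTg, 4.03 and 4.66 in CKO and 2.46 and 3.15 in WT, and Il18r1, at 5.32 and 6.46 in BTg, 9.54 and 8.37 in CKO and 4.86 and 6.30 in WT, were higher in both libraries labelled CKO than in the other 4 on this scale, though not in FPKM. Ifngr1 remained split between the libraries labelled CKO, at 36.8 and 14.1 FPKM per 100 of Cd4, against 12.8 and 15.6 in BTg and 11.5 and 16.2 in WT. Il6ra, Il27ra, Tgfbr2 and Il18r1 were higher in BTg than in WT libraries in FPKM, but these overlapped per 100 of Cd4. Il6ra was at 10.0015 and 10.8 in BTg and 8.50 and 11.4 in WT, and Il27ra at 28.8 and 30.8 against 25.5 and 31.7. Tgfbr2 was at 5.42 and 5.70 in BTg and 4.08 and 5.62 in WT. Both BTg libraries stayed above WT for Il4ra and below for Il7r, Il2rb and Il6st (8.07 and 9.66 against 11.7 and 15.3).

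**Figure D3:**
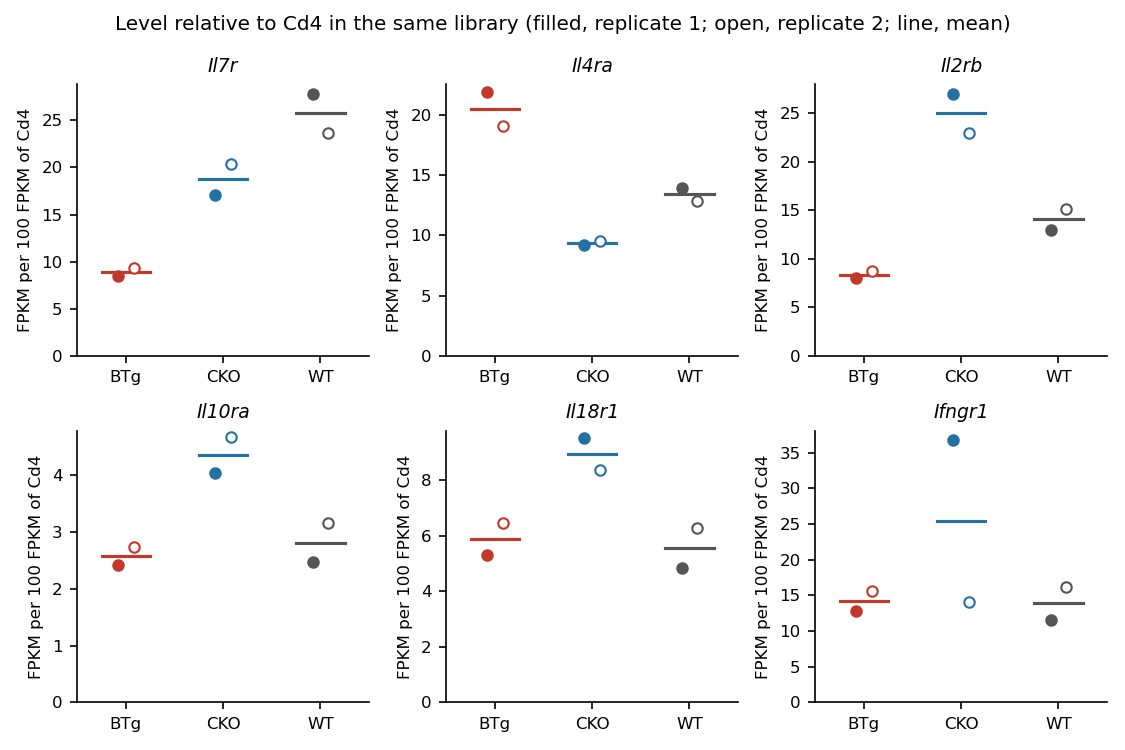
Levels of 6 chains in FPKM per 100 FPKM of Cd4 in the same library, by group (BTg, CKO, WT), with vertical axes that start at 0. Filled points are replicate 1, open points replicate 2 and lines the mean. Il7r, Il4ra and Il2rb separate the 3 groups, Il10ra and Il18r1 are highest in both libraries labelled CKO, and the 2 CKO points of Ifngr1 lie at 36.8 and 14.1.

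Levels of different genes were compared as exon-length RPKM (reads per kilobase of exon, scaled to the library total), since the deposited FPKM divide by a length that includes introns. This measure takes the counted reads to lie in exons, which was not checked, and the order of the chains depends on it. In BTg the order by mean was Il27ra (106), Il4ra (69.1), Tgfbr2 (61.2), Il6ra (56.8), Ifngr1 (53.4), Il7r (40.7), Il18r1 (37.8), Il2rb (28.2), Il6st (23.6) and Il10ra (11.5). The libraries of Tgfbr2 and Il6ra, of Il6ra and Ifngr1, and of Il7r and Il18r1 overlapped, and the other neighbours in this order did not. In CKO it was Il27ra (67.3), Il7r (63.6), Ifngr1 (61.1), Il2rb (59.9), Il18r1 (41.0), Tgfbr2 (33.2), Il6ra (31.2), Il6st (24.5), Il4ra (23.2) and Il10ra (14.3), where all neighbours overlapped. In WT it was Il7r (102), Il27ra (87.0), Il6ra (46.5), Tgfbr2 (45.6), Ifngr1 (44.5), Il2rb (40.7), Il4ra (39.3), Il6st (30.7), Il18r1 (30.6) and Il10ra (10.7), and the neighbours that did not overlap were Il27ra and Il6ra, Il4ra and Il6st, and Il18r1 and Il10ra. Il10ra was thus at the low end in all 3 groups. By mean, Il7r had the highest level of the 10 in WT and the sixth highest in BTg, and Il4ra stood seventh in WT, second in BTg and ninth in CKO.

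**Figure D4:**
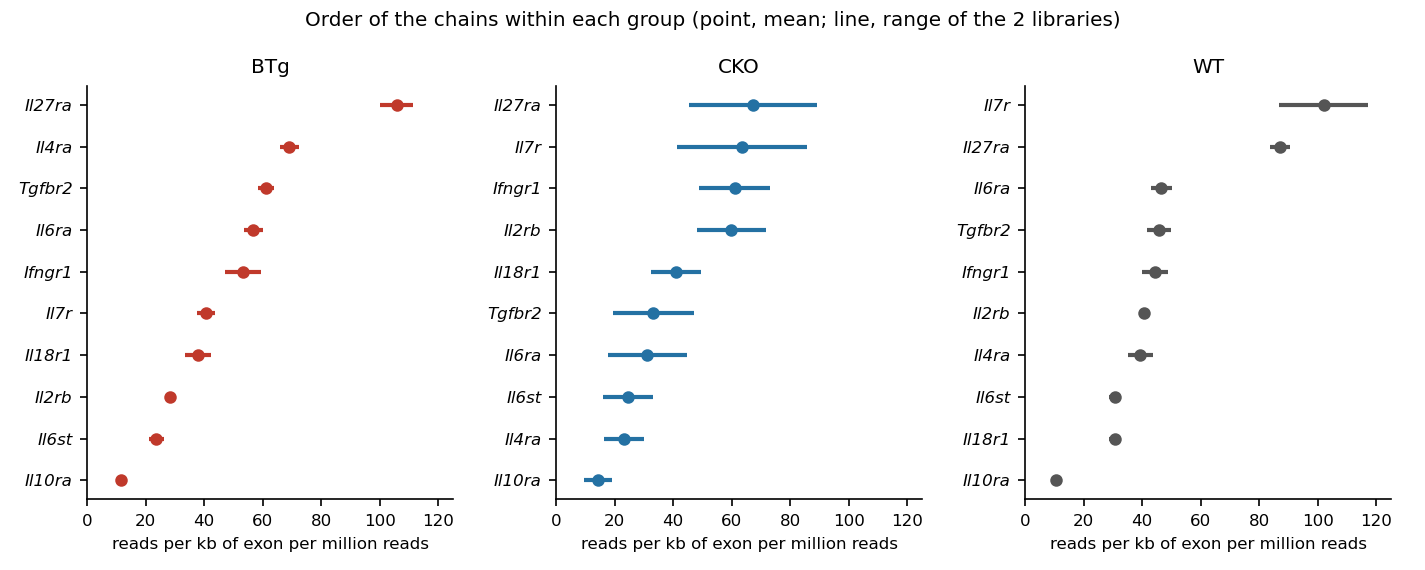
Levels of the 10 chains within each group, in exon-length RPKM (reads per kilobase of exon, scaled to the library total) on an axis that starts at 0, with panels for BTg, CKO and WT. Points are the mean and lines the range of the 2 libraries, and genes run downwards by mean level. Il27ra leads in BTg (106) and CKO (67.3), Il7r leads in WT (102), and the lines of neighbouring genes overlap throughout the CKO panel.

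Exons of 3 of the 10 overlap another annotated gene on the opposite strand. Il4ra overlaps the antisense gene Gm44876, with 0 to 5 reads per library, and Il6ra overlaps the antisense gene Gm42809, with 17 to 81. Il27ra overlaps the protein-coding gene Palm3, which had 104 to 751 reads. The strand setting of the counting is not given in the sources used here, so reads of the overlapping stretches cannot be told apart.

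Of 23 partner and related chains that complete these receptors or resemble them, 15 passed the filter. Between BTg and WT 7 had a positive and 8 a negative log2 difference, 0 passed the test (0 also at an unadjusted p under 0.05), and the median was -0.02, in a range from -0.50 to 0.67. For 4 of the 15 both BTg libraries were above both WT libraries and for 5 below, where 14.7% and 10.4% of all genes were so placed. Il2rg, the common gamma chain that Il7r, Il4ra and Il2rb use, was at 122 and 137 FPKM in BTg, 98.6 and 122 FPKM in CKO and 123 and 122 FPKM in WT. The log2 difference between BTg and WT was 0.08 for Il2rg, -0.15 for Il2ra (the IL-2 receptor alpha chain), 0.25 for Il10rb (the second chain of the IL-10 receptor) and -0.02 for Tgfbr1. Ifngr2, the second chain of the interferon gamma receptor, was at 2.29 and 2.42 FPKM in BTg, 2.48 and 2.51 FPKM in CKO and 3.72 and 3.29 FPKM in WT. Both other groups were therefore below both WT libraries for Ifngr2 (log2 difference -0.43 ± 0.18 for BTg and -0.37 ± 0.18 for CKO, adjusted p = 1 for both).

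Il21r, which codes for the IL-21-binding chain, is the next annotated gene to Il4ra on chromosome 7, on the same strand and 23954 bases away. It was at 9.03 and 10.6 FPKM in BTg, 3.62 and 6.43 FPKM in CKO and 5.45 and 6.11 FPKM in WT. Like Il4ra it was higher in both BTg libraries than in the other 4, with a log2 difference of 0.67 ± 0.29 against WT (adjusted p = 1) and 0.88 ± 0.29 against CKO (adjusted p = 0.483), whereas its libraries labelled CKO overlapped those of WT.

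Il18rap, the accessory chain that Il18r1 needs to signal, is the next gene to Il18r1 on chromosome 1, on the same strand and 14507 bases away. It was at 0.819 and 0.985 FPKM in BTg, 3.22 and 2.49 FPKM in CKO and 1.44 and 1.40 FPKM in WT. The 3 groups did not overlap, with CKO highest and BTg lowest, the order seen for Il2rb. The log2 difference was -0.35 ± 0.21 between BTg and WT (adjusted p = 1), 0.67 ± 0.21 between CKO and WT (adjusted p = 1) and -1.01 ± 0.21 between BTg and CKO (adjusted p = 0.267). Il18r1 itself, at 0.25 between BTg and WT, had the opposite sign from Il18rap in that comparison.

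Among the other genes of the pathways, those for the ligands were mostly too low to test: 2 of 14 passed the filter, Tgfb1 and Ifng. Of 18 genes for Janus kinases, STATs, Smads and IL-18 adaptors, 17 were tested between BTg and WT, 15 with a positive and 2 with a negative difference, at a median of 0.14 with 0 past the test and 0 at an unadjusted p under 0.05. Jak1, which pairs with most of these chains, was at 12.0 and 11.9 FPKM in BTg, 5.75 and 10.5 FPKM in CKO and 10.9 and 11.1 FPKM in WT. Between CKO and WT, 8 were positive and 9 negative, with a median of -0.01.

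Of 22 inhibitors of cytokine signalling, 19 were tested, and between BTg and WT 14 had a positive and 5 a negative difference at a median of 0.14, with 0 past the test. Socs3, which blocks receptors that use gp130, was the 1 gene among them with an unadjusted p under 0.05 (1.62% of all genes). It was at 218 and 205 FPKM in BTg, 120 and 119 FPKM in CKO and 121 and 119 FPKM in WT. Both BTg libraries were well above the other 4, which lay between 119 and 121 FPKM (log2 difference against WT 0.81 ± 0.29, adjusted p = 1). Per 100 FPKM of Cd4 that separation was lost, with Socs3 at 219 and 198 in BTg, 223 and 127 in CKO and 129 and 145 in WT. Cish, a STAT5-induced inhibitor, was at 10.4 and 14.7 FPKM in BTg, 3.70 and 9.81 FPKM in CKO and 7.17 and 8.38 FPKM in WT (log2 difference between BTg and WT 0.61 ± 0.43, adjusted p = 1). Socs1 differed by -0.06 between BTg and WT. Smad7, which blocks the TGF-beta receptor, was at 8.04 and 8.44 FPKM in BTg, 1.95 and 5.57 FPKM in CKO and 5.73 and 7.04 FPKM in WT, and its difference of 1.07 ± 0.39 between BTg and CKO did not pass (adjusted p = 0.525).

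Of 12 cytokine-responsive genes, 11 were tested between BTg and WT, 7 with a positive and 4 with a negative difference at a median of 0.25, and 0 passed. The 1 gene with an unadjusted p under 0.05 (1.62% of all genes) was Id2, an inhibitor of E-protein transcription factors that IL-2 and other cytokines induce. It was at 34.9 and 22.8 FPKM in BTg, 41.9 and 42.0 FPKM in CKO and 74.4 and 43.1 FPKM in WT. Its WT libraries differed widely from each other, and both BTg libraries were below the other 4 (log2 difference against WT -0.98 ± 0.38, adjusted p = 1).

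The list of transcription factors known to act on Il7r holds 7 genes. All 7 were tested, and all 7 had a positive difference between BTg and WT, from 0.08 to 0.35. Of these 0 passed, with 0 also at an unadjusted p under 0.05. A small positive difference was not particular to this list: of 13 T cell identity genes 12 were positive and 1 negative, at a median of 0.16. Between CKO and WT 1 was positive and 6 were negative, at a median of -0.41. The mean log2(FPKM + 1) of the 7 was 2.70 in CKO replicate 1 and 3.13 in CKO replicate 2, against 3.08 and 3.12 in the WT libraries. Both libraries labelled CKO were below both WT libraries for 2 of the 7 (8.96% of all genes) and above them for 1 (11.5%). Foxo1, an activator of Il7r, was at 3.61 and 4.14 FPKM in BTg, 1.18 and 2.82 FPKM in CKO and 2.66 and 3.02 FPKM in WT (log2 difference between BTg and WT 0.35 ± 0.30, adjusted p = 1). Gfi1, a repressor of Il7r, was at 2.33 and 2.80 FPKM in BTg, 7.61 and 2.66 FPKM in CKO and 2.07 and 2.34 FPKM in WT. The high Gfi1 value was that of CKO replicate 1 alone.

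**Figure D5:**
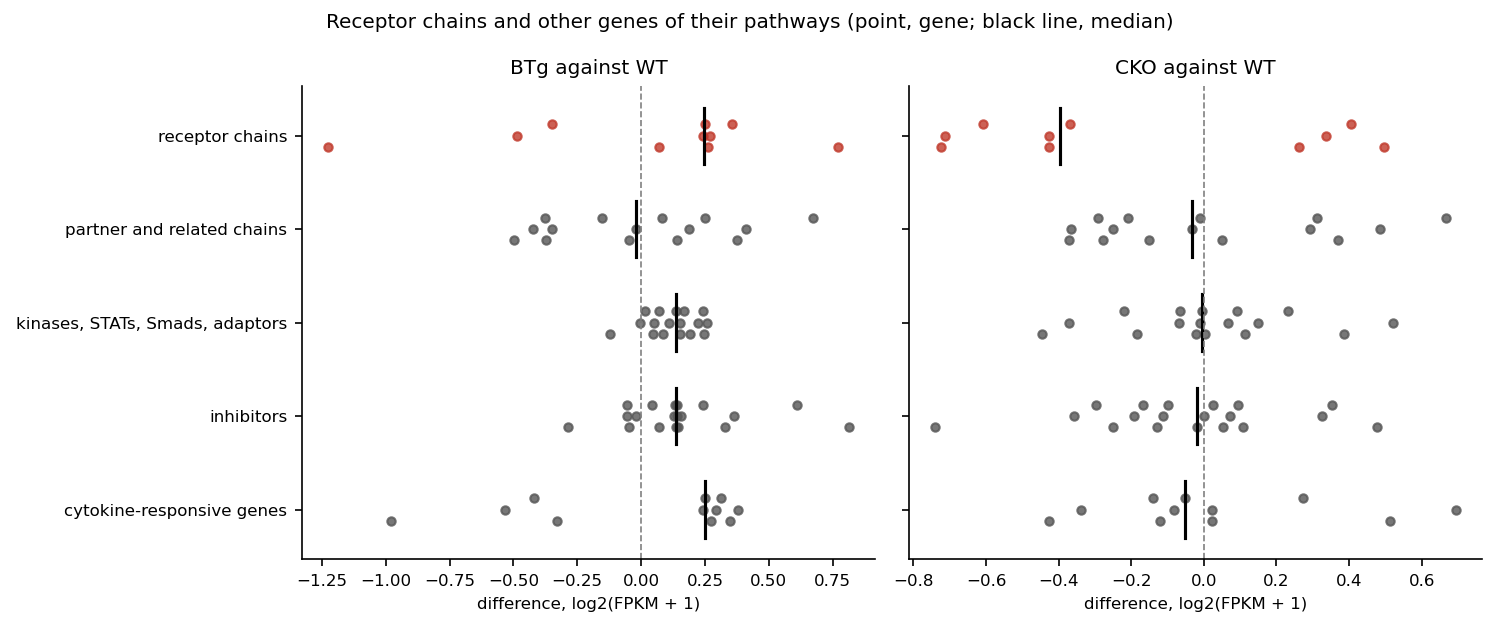
Log2(FPKM + 1) differences of the 10 receptor chains and of 4 other lists of pathway genes, for BTg against WT (left) and CKO against WT (right). Each point is a gene, each black line the median of its list, and the dashed line marks no difference; the horizontal scales of the 2 panels differ. Medians for BTg against WT lie between -0.02 (partner and related chains) and 0.25 (receptor chains and cytokine-responsive genes). For CKO against WT they lie between -0.40 (receptor chains) and -0.01. The mean level of the receptor chains was below both WT libraries in CKO replicate 1 and above both in CKO replicate 2.

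Of the genes that mark naive, effector and regulatory T cells, 1 passed the test against WT. Of 15 naive T cell genes 13 were tested; between BTg and WT 8 were positive and 5 negative, and 1 passed, Igfbp4, which fell to 1.87 and 1.48 FPKM in BTg, against 64.4 and 60.6 FPKM in WT (log2 difference -4.57 ± 0.29, adjusted p = 0.0221). Between CKO and WT all 13 were negative, with a median of -0.62. Of these 0 passed the test and 4 had an unadjusted p under 0.05 (4.2% of all genes). Of 17 effector and memory genes 14 were tested, and 0 passed in either comparison against WT. Between BTg and WT 13 were negative (median -0.64), with 4 at an unadjusted p under 0.05 (1.62% of all genes). Between CKO and WT 12 were positive (median 0.83), with 9 at that level (4.2% of all genes). Cxcr3, a chemokine receptor of effector and memory cells, was at 6.02 and 6.99 FPKM in BTg, 28.3 and 38.3 FPKM in CKO and 13.1 and 13.6 FPKM in WT, the group order of Il2rb and Il18rap. Of 7 regulatory T cell genes tested, 0 passed in either comparison against WT. Between BTg and WT 6 were negative, with 0 at an unadjusted p under 0.05 (1.62% of all genes). Between CKO and WT 4 were positive, with 1 at that level (4.2% of all genes). The part of the make-up of naive, effector and regulatory cells in the levels of the receptor chains was not tested.

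Markers of other cells were spread unevenly over the libraries. All 10 tested neutrophil markers were positive between CKO and WT (median log2 difference 3.57). Of these 0 passed the test and 4 had an unadjusted p under 0.05 (4.2% of all genes). Monocyte and macrophage markers took 0.108% of the reads of CKO replicate 1 and 0.0157% of those of CKO replicate 2, against 0.00282 and 0.0105% in WT. All 13 T cell identity genes were negative between CKO and WT (median -0.42), but for only 1 of them were both libraries labelled CKO below both WT libraries (8.96% of all genes). The 13 genes took 0.424% of the reads of CKO replicate 1 and 0.613% of those of CKO replicate 2, against 0.825 and 0.563% in WT. Erythroid markers took 0.0145 and 0.0242% of reads in the BTg libraries, 0.0494 and 0.091% in the libraries labelled CKO and 0.0118 and 0.143% in the WT libraries. Basophil markers took 0.0364% of the reads of CKO replicate 1 and 0.00439% of those of CKO replicate 2. They took 0.0013 and 0.0014% in the BTg libraries and 0.00106 and 0.00292% in the WT libraries. B cell markers took 0.00328 to 0.0101% of reads and NK cell markers 0.00187 to 0.00623% over the 6 libraries. Several of the chains, among them Il4ra, Il6ra, Il10ra and Ifngr1, are also expressed by myeloid cells, and the part of those cells in the CKO values was not tested. Without CKO replicate 1 the log2 difference between CKO and WT was -0.0434 for Il6ra, 0.0350 for Il27ra, 0.0412 for Tgfbr2, 0.64 for Il10ra and 0.13 for Ifngr1. Without CKO replicate 2 it was -1.17 for Il6ra, -0.89 for Il27ra, -0.90 for Tgfbr2, -0.12 for Il10ra and 0.68 for Ifngr1.

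Il7r and Il4ra were the only 2 chains whose group means differed by at least 1 on the log2 scale, Il2rb being just under at 0.98. Among 6514 protein-coding genes, the profiles over the 6 libraries closest to that of Il7r were those of Scml4, Slfn5 and Sesn1, with root mean square differences of 0.19, 0.21 and 0.25 on the log2 scale, against a spread of Il7r around its own mean of 0.59. Closest to Il4ra were Prf1, Atp1b1 and Sgk1, at 0.12, 0.16 and 0.17, against a spread of 0.65. Prf1, the gene of perforin, was at 10.1 and 9.76 FPKM in BTg, 1.86 and 4.51 FPKM in CKO and 7.495 and 5.60 FPKM in WT. Sgk1, a kinase gene, was at 29.7 and 30.6 FPKM in BTg, 9.96 and 18.4 FPKM in CKO and 21.6 and 17.7 FPKM in WT.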

How the data were processed

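Per the labels' protocols, TRIzol RNA went into NEBNext Ultra libraries. The submitters' processing notes name Trimmomatic (0.38), HISAT2 (2.1.0), featureCounts (1.6.0) and the build GRCm38. Which annotation release and which strand setting served is not given in the sources used here. One FPKM table, by Ensembl gene, was deposited by the authors, and genes are named here by GENCODE M21. Taking as gene length the median span of the annotated transcripts, introns included, turned 100.0% of the nonzero FPKM into whole reads (tolerance 0.01), and taking exon length turned 21.2 to 22.9%. If the counted reads lie in exons, which was not checked, the deposited FPKM understate genes with long introns. Ratios of 1 gene between libraries do not depend on length. The recovered reads gave totals and levels per exon length.

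Values were tested as log2(FPKM + 1), which understates changes of low genes, in one limma fit of all 6 libraries (R 4.3.3, limma 3.58.1, eBayes with a trend, no block), for genes that reached 1 FPKM in 2 or more libraries, with Benjamini-Hochberg adjustment over all 10798 genes and a threshold of 0.05. The code was tested on simulated data. With 2 libraries against 2 an exact permutation test cannot go below 0.333 (two-sided), so none is given. Alternatives were another pseudocount (0.1), no filter, quantile normalization, median centring, exon length, voom on the recovered reads, a replicate block, each library left out and, chosen after seeing the data, scaling to T cell identity genes. The members and lists were chosen with earlier results of these data known. Named besides the 10 chains were Prdm1, genes of each list past the threshold or else up to 3 of smallest p with a mean of at least 2 FPKM in the higher group, a fixed set of partner chains, inhibitors and regulators, and the 3 nearest profiles of each chain with a group difference of at least 1. Of these, the text gives those that bear on the chains.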

Additional observations from a re-analysis of the deposited data

How the results depend on the processing

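Each of the 30 differences of the receptor chains (10 genes, 3 comparisons) was recomputed under 14 alternatives. Some of these could not move the estimate, only its p-value, so its direction was fixed. They were no filter on low values, the replicate block and leaving out a library of the group not compared. Of 420 values, 406 kept their direction and their side of the threshold, 13 turned sign and 1 newly passed, and 21 of the 30 differences never turned. The value that newly passed was Il4ra between BTg and CKO without CKO replicate 2, at 1.87 (adjusted p = 0.0463). Scaling to T cell identity genes gave -0.0273 for Il10ra between BTg and WT and -0.46 for Il6st between BTg and CKO. It gave smaller differences between CKO and WT for Il7r (-0.33), Il4ra (-0.37), Il6ra (-0.27), Il27ra (-0.0399), Il6st (-0.00676) and Tgfbr2 (-0.14), and larger ones for Il2rb (0.88), Il10ra (0.55), Ifngr1 (0.79) and Il18r1 (0.68). Between BTg and CKO it gave 0.18 for Il27ra, 0.41 for Il6ra, 0.37 for Tgfbr2, 1.01 for Il4ra, -1.48 for Il2rb and -1.01 for Il7r. Between BTg and WT it gave 0.14 for Il6ra, 0.14 for Il27ra, 0.11 for Ifngr1, 0.13 for Il18r1 and 0.23 for Tgfbr2. The scaling moved the median of all genes to -0.08 between BTg and WT, 0.27 between CKO and WT and -0.35 between BTg and CKO. With each library left out in turn, differences that turned ran from -0.44 to 0.11 for Ifngr1 between BTg and CKO, and for Il10ra from -0.0147 to 0.158 between BTg and WT, from -0.12 to 0.64 between CKO and WT and from -0.57 to 0.19 between BTg and CKO. They ran from -0.35 to 0.18 for Il18r1 and from -0.46 to 0.49 for Il6st between BTg and CKO. Between CKO and WT they ran from -0.89 to 0.0350 for Il27ra, from -0.84 to 0.11 for Il6st and from -0.90 to 0.0412 for Tgfbr2.

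The number of genes called among all genes, 2 between BTg and WT, 0 between CKO and WT and 2 between BTg and CKO, was 46, 65 and 81 without the filter on low values. It was 0 between BTg and WT and 0 between BTg and CKO with quantile normalization, and 4 and 7 with voom. Exon length gave 9 between BTg and CKO, and scaling to T cell identity genes gave 1 between CKO and WT and 69 between BTg and CKO. With each library left out it ran from 0 to 0 between BTg and WT, from 0 to 67 between CKO and WT and from 0 to 238 between BTg and CKO, the upper ends being those without CKO replicate 2, where the lone CKO library was assumed to vary like the other groups. The cause of these shifts was not tested. With the replicate number as a block, 0 genes were called between BTg and WT and 0 between BTg and CKO. The deviations of same-numbered libraries correlated at 0.456 (BTg and CKO), 0.469 (BTg and WT) and 0.173 (CKO and WT), but with 2 numbers and no label of shared origin the pairing is not established. With 2 libraries a group and 1 of them apart, the intervals are wide, and a chain that missed the threshold is not shown to be at the same level.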
